A study of Mus musculus with 24 samples.

Results

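The genes described here are 45 transcription factors that specify neural, sensory, endodermal or cardiac cells, followed through the chromatin of mouse forelimb buds, a tissue of another lineage. They were chosen by name, with earlier results of these data known. For each, the peaks overlapping its gene body and 20 kb on either side were counted, together with the bases they cover. These windows are 45 of the 21938 that all protein-coding genes give by the same rule. The name under which the genes were grouped calls them silent in the limb. RNA was not analysed here, so silence itself was not measured, and the genes are called neural and endodermal regulators below.

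Chromatin immunoprecipitation and sequencing had been done on forelimb buds of E10.5 embryos with 32 to 35 somites on a Swiss Webster background, with about 400000 cells per reaction, pooled from several embryos and litters. The controls are called wild type (WT), and by the study's methods they mixed WT with heterozygous littermates, while the mutants were homozygous for a null allele of Shh, the Hedgehog ligand of the limb. H3K27ac and H3K4me2 were mapped in both genotypes, whereas for H3K27me3 the mutant alone is covered. A second set of H3K27ac libraries came from NIH3T3, an established line of Hedgehog-responsive mouse fibroblasts, kept for 48 h in 400 nM purmorphamine, an agonist of the pathway, or in the solvent DMSO. The 24 libraries, of which 10 were inputs, gave 7 peak lists, and peak calling had merged the 2 replicates of every condition. Replicate error is thus unknown for each count below, no test was possible, and all comparisons are descriptions of these lists. The libraries are whole limb buds, in which fewer cells with a mark and less of it per cell cannot be told apart.

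Polycomb repressive complex 2 places H3K27me3 on genes that a lineage does not use, and its broad domains over developmental transcription factors are a textbook case. Promoters that carry H3K27me3 together with methylation of H3K4 are called bivalent, a state first described at such factors in stem cells. H3K27ac sits on the same lysine as H3K27me3, so a single histone tail cannot carry both, and it marks active promoters and enhancers. H3K4me2 marks promoters and enhancers whether or not they are acetylated. CpG-rich DNA is where Polycomb complexes are typically found in mammals.

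All 45 regulators held H3K27me3 in the Shh-/- limb bud, and all 45 held it at their own promoter, defined as 2 kb before to 1 kb after any annotated transcription start. Among all protein-coding genes, 36.9% held a peak in the window and 13.3% at the promoter. H3K27ac went the other way. In the WT list 8 of the 45 windows held an H3K27ac peak, beside 64.8% of all genes, and 1 own promoter did, beside 43.8%. In the Shh-/- list 5 windows did, beside 62.0% of all genes, and 2 own promoters did, beside 40.9%. H3K4me2 was found in 42 windows in WT (75.7% of all genes) and 43 in Shh-/- (75.6%), and at 31 own promoters in WT (64.0% of all genes) and 30 in Shh-/- (63.5%).

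**Figure D1:**
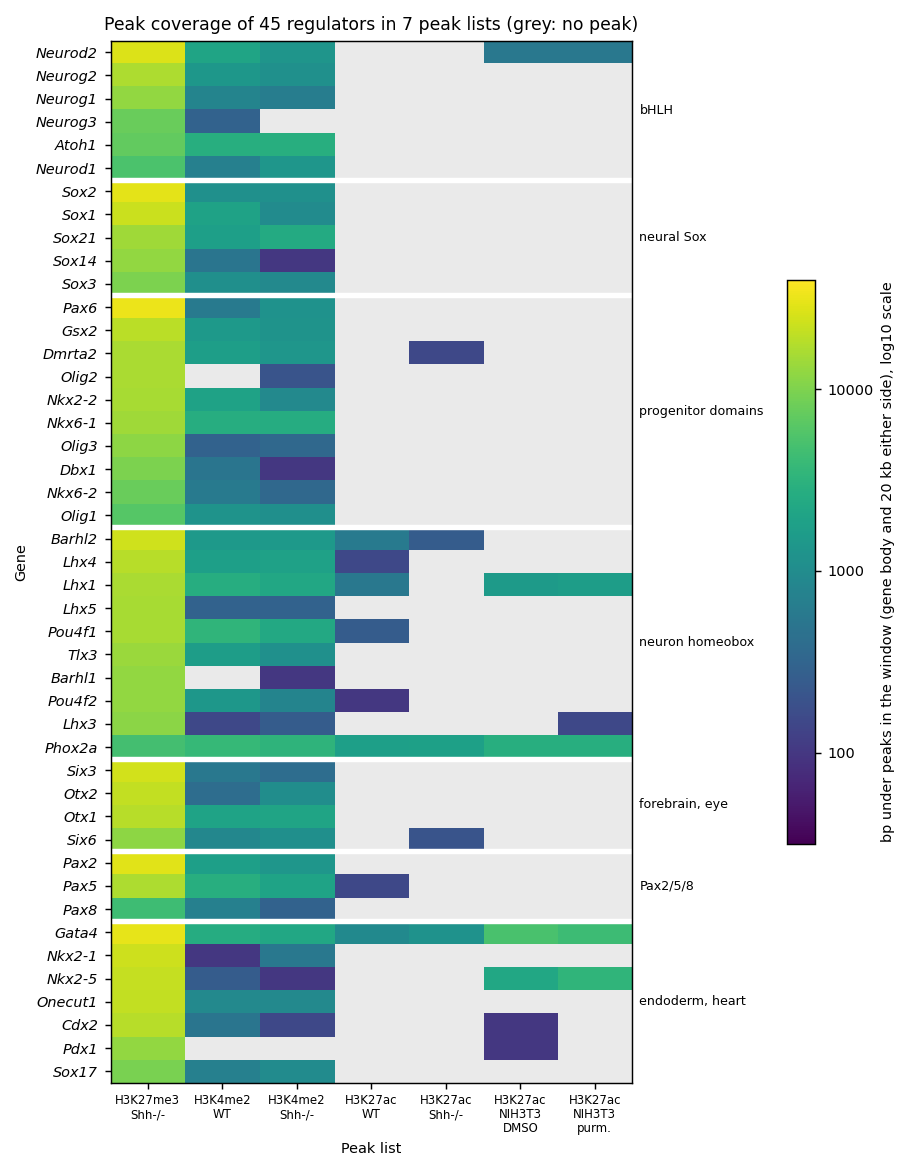
Bases under peaks in the window of each regulator (rows, by role, from most to fewest H3K27me3 bases within a role) for the 7 peak lists (columns), on a log10 colour scale, with grey for no peak. The H3K27me3 column is filled for all 45 genes, from 4350 to 32200 bp, whereas 35 rows are grey in both limb H3K27ac columns.

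The H3K27me3 over the regulators was broad. The windows held 307 distinct peaks, 1.47% of the list, yet 6.87% of all the bases the list covers, the median peak being 600 bp wide here and 150 bp in the list as a whole. They held 15 of the 100 best-ranked peaks and 88 of the 1000 best-ranked, rank being the order of the caller's score. An FDR under 0.05 was reached by 74.6% of the peaks in the windows and by 47.2% of the whole list. The values for all genes were not recomputed at that limit. Per regulator, H3K27me3 covered a median of 15750 bp, and 28.6% of the summed windows against 0.831% for all genes. Only 0.647% of all protein-coding genes had at least as many covered bases as the median regulator, and 4.34% had as many as the lowest, Pax8. The widest single peak of a regulator ran from 2200 bp at Neurod1 to 17900 bp at Gsx2, with a median of 8750 bp, and 43 regulators held at least 1 of the 500 widest peaks of the list, those of 3500 bp or more.

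The mark was centred on the genes. A transcription start lay under H3K27me3 at 43 regulators, while 6.1% of all protein-coding genes had a start under it. The 2 exceptions were Atoh1 and Onecut1. Read along the most upstream start, H3K27me3 was over 57.8% of the regulators at 5 kb before it, over 91.1% at the start, over 97.8% at 1000 bp into the gene, and over 44.4% at 10000 bp. Of all genes, 5.11% were covered at the start. In 39 regulators more than 50% of the gene body was covered, and in 20 all of it. The others were the long genes, in which the mark was confined to a part. It covered 5.11% of Pax5, 7.45% of Pax8, 14.2% of Pax2, 19.9% of Onecut1, 34.2% of Lhx4 and 41.1% of Gata4.

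**Figure D2:**
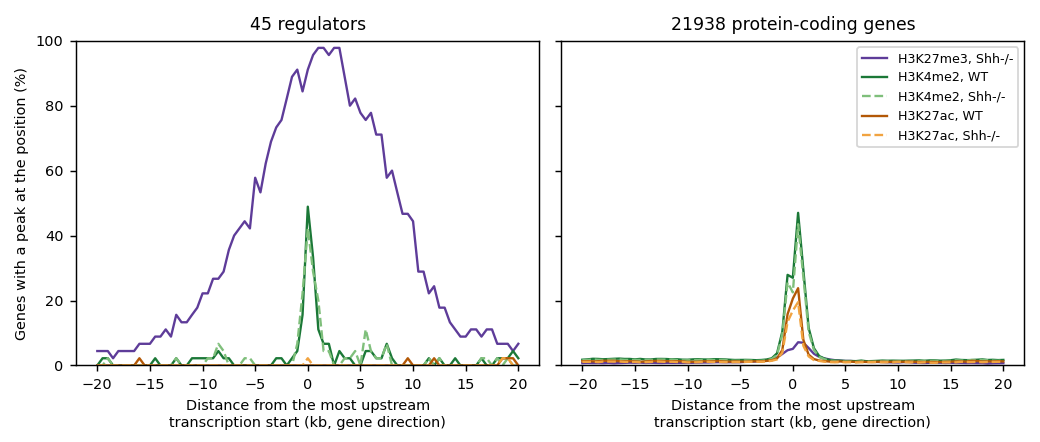
Share of the 45 regulators (left) and of all 21938 protein-coding genes (right) that have a peak at each distance from the most upstream transcription start, in kb along the gene, for the 5 limb lists. H3K27me3 forms a broad hill over the regulators that reaches 97.8%, and H3K4me2 a narrow spike at the start of 48.9% in WT and 42.2% in Shh-/-, while H3K27ac stays at or below 2.22%.

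The 6 regulators with the most H3K27me3 came from 6 of the 7 role groups, 1 from each. Pax6, a master regulator of the eye and of dorsal and ventral neural progenitors, had 32200 bp in 6 peaks, the widest of them at chr2:105661400-105678249 across its annotated starts. Gata4, required for heart and foregut, had 30350 bp in 11 peaks that covered its upstream starts and the region around them and stopped short of its internal start. Sox2, which keeps neural progenitors undifferentiated, had 29350 bp in 15 peaks, which covered 69.8% of its window, a larger share than in any other regulator. Pax2, of the midbrain-hindbrain boundary, kidney and ear, had 28950 bp in 12 peaks, Neurod2, a neuronal differentiation factor, 27499 bp in 18, and Six3, of the anterior forebrain and eye, 24550 bp in 7. The peak over Neurod2 at chr11:98325300-98330349, covering the whole gene, was the best placed of all the peaks in these windows, with rank 13 of the list and a largest log2 ratio of ChIP to input of 5.61.

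Promoter marks were compared between the regulators and gene lists of other kinds, which are given as counts without a test. Of the 45 regulators, 28 had H3K27me3 with H3K4me2 and no limb H3K27ac, 15 had H3K27me3 with neither, and 2, Gata4 and Dmrta2, had H3K27ac as well. Of 24 regulators of the limb itself (Hand2, Tbx5, Msx1, Prrx1 and others), all 24 had promoter H3K27ac in at least 1 limb list, and 15 of them also held promoter H3K27me3. The amount differed. H3K27me3 covered a median of 2450 bp of the windows of the limb regulators and 15750 bp of those of the neural and endodermal regulators. Of 54 paralogs from the same families, 3 of which (Lmx1b, Lhx2 and Lhx9) are also among the limb regulators, 45 had promoter H3K27me3 and 12 promoter H3K27ac. H3K27me3 covered a median of 9050 bp of the paralogs' windows and 15.8% of their summed bases. Broad H3K27me3 was thus not particular to the 45 regulators. Of 22 genes for Polycomb subunits, 5 had promoter H3K27me3, and 18 had promoter H3K27ac in at least 1 limb list. Of all 2924 genes with promoter H3K27me3, 16.3% had promoter H3K27ac in WT and 86.2% had promoter H3K4me2 in Shh-/-, against 2.22% and 66.7% of the 45.

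**Figure D3:**
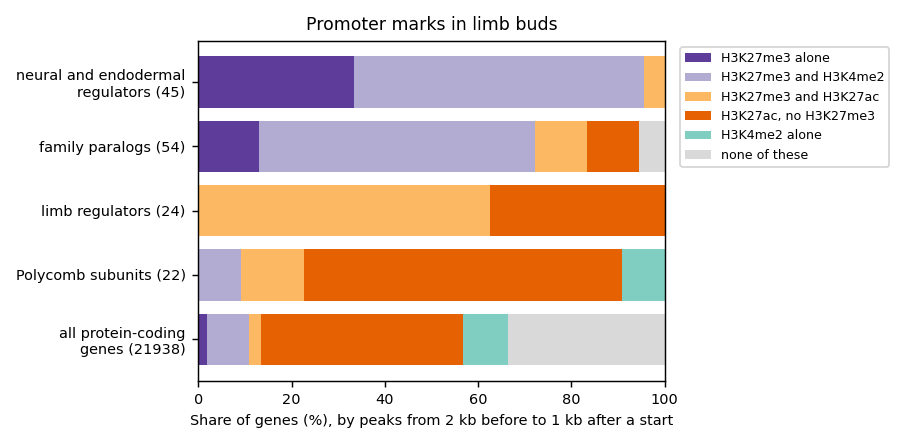
Share of genes (%, horizontal) in 6 exclusive promoter states from the limb lists, for the 45 neural and endodermal regulators, 54 paralogs, 24 limb regulators, 22 Polycomb subunits and all 21938 protein-coding genes; H3K27ac counts if present in either genotype, H3K4me2 and H3K27me3 in Shh-/-. All 45 regulators lie in the 3 states with H3K27me3 (15, 28 and 2 genes), and all 24 limb regulators in the 2 states with H3K27ac.

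Overlap of H3K27me3 with H3K4me2 was counted in Shh-/- limb buds, where both marks had been mapped. An H3K27me3 peak lay over an H3K4me2 peak in 42 of the 45 windows, beside 18.2% of all genes, and so at the own promoter of 30, beside 9.70%. All 45 held promoter H3K27me3, however. Of all 2924 genes that did, 2128 had the overlap at the promoter, so it was no commoner at the regulators than at such genes. Pdx1 and Neurog3 had no Shh-/- H3K4me2 peak in the window, and the 800 bp of H3K4me2 at Pou4f2 lay outside its H3K27me3. Of the 130 H3K4me2 peaks in the windows, 111 (85.4%) overlapped H3K27me3, against 11.4% of that whole list, and in WT 111 of 128 (86.7%) overlapped the Shh-/- H3K27me3, against 12.2%. The overlap was narrow within the broad domains. It came to 38150 bp, and 682449 bp had H3K27me3 alone. Of the 307 H3K27me3 peaks, 73 (23.8%) met an H3K4me2 peak in each genotype, close to the 21.1% of the whole H3K27me3 list that did so in WT and the 20.1% in Shh-/-. Whether both marks lay in the same cells cannot be told from pooled limb buds.

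The bases under both marks were rich in CpG. They held 8.11 CpG per 100 bp, against 2.89 under H3K27me3 alone and 1.04 in the rest of the windows. The density under both marks exceeded that under H3K27me3 alone in all 42 regulators that had both segments, and that under H3K27me3 alone exceeded the rest of the window in all 45. This order was not particular to the regulators, since over the whole lists the density was 7.54 under both marks and 2.55 under H3K27me3 alone. In RefSeq's GRCm38.p6 promoters of 300 bases, which held 39 of the 45 genes, the median number of CpG was 20, from 4 at Olig3 to 57 at Pou4f1, and 36 promoters (92.3%) held at least 10. Among all 16522 protein-coding genes in that set the median was 15, and 61.4% held at least 10. The comparison lists were also rich in CpG, so this was not particular to the regulators. The median was 22 in 15 limb regulators, 27 in 20 Polycomb subunits and 17 in 35 paralogs. At least 10 CpG were held by 86.7%, 95% and 85.7% of these.

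**Figure D4:**
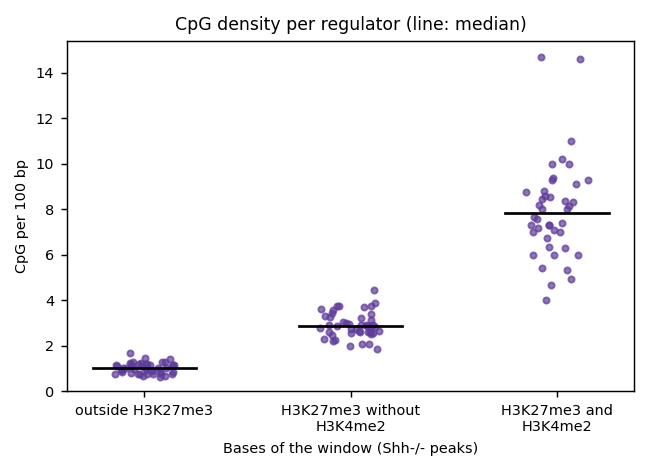
CpG per 100 bp (vertical) in the window of each regulator (points) for bases outside H3K27me3, under H3K27me3 without H3K4me2, and under both marks in Shh-/- limb buds, with the median as a line. The medians are 1.01, 2.89 and 7.83, and the points under both marks spread from 4 to 14.7.

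The 250 bases before the RefSeq start of 4 regulators are given to show promoters of differing marks, on GRCm38 (mm10), 5′ to 3′ on the strand of the gene, with every CpG in capitals. Atoh1, the proneural factor of hair cells and granule neurons (chr6:64728875-64729124, plus strand, 14 CpG), lay wholly under H3K4me2 in both genotypes with no base under H3K27me3, whose peaks lay on either side at chr6:64728150-64728599 and chr6:64729300-64735549. Sox2 (chr3:34649745-34649994, plus strand, 27 CpG) had 155 bases under H3K4me2 in each genotype and 5 under H3K27me3, between flanking H3K27me3 peaks. Nkx2-5, of the heart (chr17:26841566-26841815, minus strand, 8 CpG), and Pdx1, of the pancreas (chr5:147269847-147270096, plus strand, 10 CpG), had all 250 bases under H3K27me3 and none under H3K4me2. At Nkx2-5, 34 of these bases were under H3K27ac in purmorphamine-treated NIH3T3 cells. Each stretch ends where the RefSeq start begins, which need not be the start of the gene annotation used for the counts.
Atoh1: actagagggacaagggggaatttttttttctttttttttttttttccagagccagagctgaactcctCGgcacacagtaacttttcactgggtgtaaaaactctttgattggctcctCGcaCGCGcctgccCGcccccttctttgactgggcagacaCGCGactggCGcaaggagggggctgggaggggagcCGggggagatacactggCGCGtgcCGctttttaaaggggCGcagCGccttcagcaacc
Sox2: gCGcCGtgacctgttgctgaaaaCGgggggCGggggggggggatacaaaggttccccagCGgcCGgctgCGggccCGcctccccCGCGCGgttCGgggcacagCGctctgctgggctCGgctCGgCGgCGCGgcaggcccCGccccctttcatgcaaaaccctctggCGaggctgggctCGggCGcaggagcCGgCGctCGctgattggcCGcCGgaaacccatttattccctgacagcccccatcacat
Nkx2-5: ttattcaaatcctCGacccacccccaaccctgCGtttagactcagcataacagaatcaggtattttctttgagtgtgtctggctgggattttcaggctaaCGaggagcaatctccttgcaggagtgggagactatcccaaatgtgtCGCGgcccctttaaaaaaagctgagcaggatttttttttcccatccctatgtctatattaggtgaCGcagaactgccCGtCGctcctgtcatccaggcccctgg
Pdx1: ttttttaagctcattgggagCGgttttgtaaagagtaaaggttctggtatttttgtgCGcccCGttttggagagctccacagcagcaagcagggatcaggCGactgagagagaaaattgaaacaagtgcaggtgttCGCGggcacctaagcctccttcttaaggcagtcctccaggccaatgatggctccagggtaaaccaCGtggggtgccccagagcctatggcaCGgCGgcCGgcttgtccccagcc

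Proneural and neuronal basic helix-loop-helix factors commit progenitors to a neuronal fate and drive their differentiation. Their 6 members had between 5300 bp (Neurod1) and 27499 bp (Neurod2) of H3K27me3 and no H3K27ac in either limb list. Neurog1, Neurog2, Neurod1 and Atoh1 had promoter H3K4me2 in both genotypes. At Atoh1 the H3K4me2 peak over the start was 1650 bp long in WT and 2050 bp in Shh-/-, and both genotypes had 2750 bp in the window. Neurog1 and Neurog2, which start neurogenesis in sensory ganglia and spinal cord, had 800 and 1400 bp of H3K4me2 in WT and 650 and 1150 bp in Shh-/-. Neurod1 had 700 and 1350 bp. Neurog3, which founds the endocrine pancreas, had 300 bp in WT and no peak in Shh-/-. Neurod2 had no H3K4me2 at its promoter, and the nearest of its peaks lay 8952 bp from its start in WT and 9202 bp in Shh-/-, with 2050 and 1300 bp in the window. Its largest Shh-/- H3K4me2 peak, of 700 bp, lay over the start of the neighbour Ppp1r1b.

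The Sox genes of the neural plate and of interneurons (Sox1, Sox2, Sox3, Sox14, Sox21) had 9700 to 29350 bp of H3K27me3 and no peak in any of the 4 H3K27ac lists. All 5 had promoter H3K4me2 in WT, and 4 in Shh-/-. Sox1 had 1950 bp in WT and 1000 bp in Shh-/-, and Sox3 1100 and 900 bp. Sox14 had 500 bp of H3K4me2 in WT and 100 bp in Shh-/-, the latter away from the promoter. Sox21 had 1800 bp in WT and 2450 bp in Shh-/-, all of the latter under H3K27me3.

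Of the 10 genes that divide the neural tube and forebrain into progenitor domains, the Hedgehog-regulated Nkx2-2, Nkx6-1, Nkx6-2 and Olig2 had 15750, 14500, 7800 and 16150 bp of H3K27me3. Shh patterns these genes in the spinal cord. Nkx6-1 had 2700 bp of H3K4me2 in WT and 2600 bp in Shh-/-, with a peak of 1850 bp and of 1800 bp over its start. Nkx2-2 had 1950 bp in WT and 900 bp in Shh-/-, none at the promoter in either. Olig2, of motor neurons and oligodendrocytes, had no peak in WT and a single peak of 200 bp over its start in Shh-/-. Its neighbour Olig1 had 1250 bp and 1100 bp, and Olig3, of the dorsal spinal cord, 300 and 350 bp. Gsx2, of the lateral ganglionic eminence, had 1500 and 1250 bp, of which 500 bp in Shh-/- lay under its H3K27me3 of 18850 bp. Dbx1, of ventral interneuron progenitors, had 500 and 100 bp and Pax6 600 and 1200 bp. Dmrta2, a cortical regulator, was the only one of the 10 with H3K27ac in either genotype, a peak of 150 bp at chr4:109977950-109978099 over its start in Shh-/-. That peak stood at 56.9% of the list by rank, overlapped H3K27me3 and H3K4me2 peaks of the same genotype, and the nearest WT H3K27ac peak was 108851 bp away.

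Homeobox genes of differentiating neurons set transmitter identity and axon paths, and the 10 here had 4700 bp (Phox2a) to 24100 bp (Barhl2) of H3K27me3. Their windows held most of the limb acetylation around the regulators, 3450 of 4528 bp in WT and 2100 of 3650 bp in Shh-/-. Much of it lay at the starts of neighbouring genes. All 550 bp of Lhx1 in WT lay near Aatf, and most of the 1800 bp (WT) and 1850 bp (Shh-/-) of Phox2a at Inppl1. Of the 8 regulators with WT H3K27ac, 6 belonged to this group, and none of those peaks lay at an own promoter. These 6 of the 10 genes (60%) compare with 64.8% of all genes, and the 2 with a Shh-/- peak (20%) with 62.0%. Lhx4 had the best-placed H3K4me2 peak of all the windows, 950 bp long and ranked 53 in the WT list, under Shh-/- H3K27me3. Pou4f1, of sensory neurons, had 9 H3K4me2 peaks over 3350 bp in WT, more peaks than any other regulator, and 7 over 2350 bp in Shh-/-. Lhx3 and Lhx5, LIM homeobox genes of motor neurons and interneurons, had 150 and 300 bp of H3K4me2 in WT and 250 and 300 bp in Shh-/-, none at the promoter. Tlx3, Lhx5 and Barhl1 had H3K27me3 of 12550 to 15750 bp and no H3K27ac in any list.

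Among the 4 forebrain and eye genes, Otx1, Otx2, Six3 and Six6, H3K27me3 covered 11750 to 24550 bp. Otx1 had 2000 bp of H3K4me2 in WT and 2050 bp in Shh-/-, and Otx2 400 and 1050 bp. Six3 had 550 and 400 bp and Six6 850 and 1100 bp. The Pax genes of the midbrain-hindbrain, kidney, ear and B cells had the lowest share of their long windows covered as a group, 11.3%, with 23.8% at Pax2, 7.38% at Pax5 and 4.58% at Pax8. The 7 endodermal and cardiac genes had 9600 bp (Sox17) to 30350 bp (Gata4). Cdx2 and Pdx1, of the intestine and pancreas, are neighbours whose windows overlap, so that 2 H3K27me3 peaks and 1 NIH3T3 peak were counted for both. Pdx1 was the only regulator without H3K4me2 in either limb list. Onecut1, of liver and pancreas, had 900 bp in each genotype, Sox17, of definitive endoderm, 700 and 1000 bp, and Nkx2-5 250 and 100 bp. Nkx2-1, of lung and thyroid, had 100 bp in WT and 550 bp in Shh-/-.

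H3K4me2 was compared between WT and Shh-/- limb buds, the genotypes that differ in Hedgehog signalling. It was present in 41 windows in both, in WT and not Shh-/- at 1 (Neurog3), beside 1.34% of all genes, and in Shh-/- and not WT at 2 (Olig2 and Barhl1), beside 1.24%. Covered bases were higher in WT at 26 regulators, higher in Shh-/- at 13 and equal at 6. Among all genes they were higher in WT at 11443 and in Shh-/- at 4647, so the excess toward WT was not particular to the regulators. The median was 1100 bp in WT and 1050 bp in Shh-/-, and the difference WT minus Shh-/- ran from -650 bp at Neurod1, Otx2 and Sox21 to 1050 bp at Nkx2-2. At the own promoter H3K4me2 was present in both genotypes at 25 regulators, in neither at 9, in WT alone at 6 (Neurog3, Sox14, Pou4f2, Six3, Pax5, Cdx2), beside 1.27% of all genes, and in Shh-/- alone at 5 (Olig2, Olig3, Phox2a, Six6, Nkx2-1), beside 0.789%. Many of these calls rested on small peaks. In the genotype with the call, no H3K4me2 peak exceeded 300 bp in the windows of Neurog3, Sox14, Six3, Cdx2, Olig2, Olig3 and Nkx2-1. The widest peaks in the windows of Pou4f2, Pax5, Phox2a and Six6 were 650 to 1000 bp, but these need not lie at the promoter. In the genotype without the call, the widest were 800 bp (Pou4f2), 1000 bp (Pax5), 3000 bp (Phox2a) and 700 bp (Six6). By the study's own differential test, nearly all H3K4me2 peaks did not change between the genotypes. Of the 128 WT peaks 85 overlapped a Shh-/- peak (66.4%, 95% Wilson interval 57.9 to 74), and 74.3% of the whole WT list did. Of the 130 Shh-/- peaks 88 overlapped a WT peak (67.7%, interval 59.2 to 75.1), and 77.5% of the whole list did. These intervals cover counting error only.

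**Figure D5:**
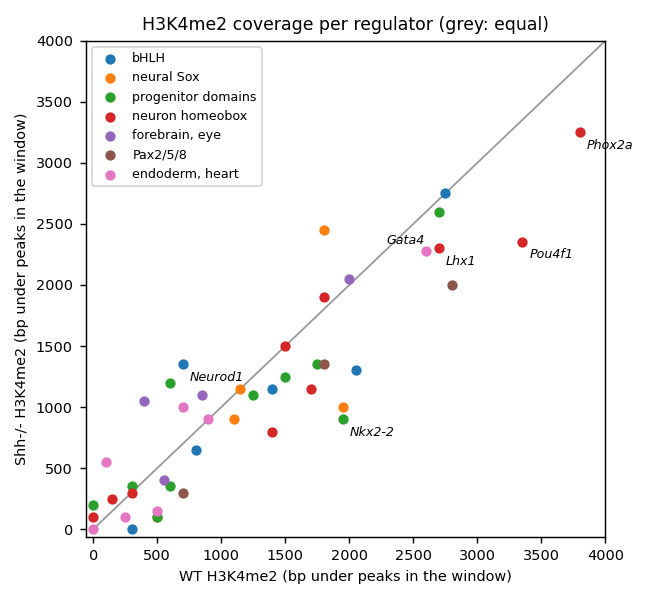
H3K4me2 bases in the window of each regulator in WT (horizontal) and Shh-/- limb buds (vertical), coloured by role, with a grey line where both are equal. Points lie below the line for 26 regulators and above it for 13, and Nkx2-2 (1050 bp more in WT) lies farthest below it.

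Limb acetylation around the regulators was sparse and small, and in part nearer to another gene, since 10 of the 15 WT and 7 of the 11 Shh-/- peaks had a regulator's start as the nearest coding start. The WT list had 15 H3K27ac peaks in the windows (0.0302% of the list) and the Shh-/- list 11 (0.025%), none among the 1000 best-ranked of either. Their median width was 150 bp in WT and 200 bp in Shh-/-. In 35 regulators there was no peak in either limb list, and in 30 none in NIH3T3 cells either. H3K27ac was found in WT and not Shh-/- in 5 windows (Lhx1, Lhx4, Pou4f1, Pou4f2 and Pax5), beside 5.42% of all genes, in Shh-/- and not WT in 2 (Dmrta2 and Six6), beside 2.61%, and in both in 3 (Phox2a, Barhl2 and Gata4). Of the 15 WT peaks 3 lay over Shh-/- H3K27me3 (0.725% of the whole list), and of the 11 Shh-/- peaks 2 did (0.701% of the whole list). These shares were 20% and 18.2%. H3K27me3 covered 28.6% of the summed windows, which is a share of bases and not of peaks. In the windows with limb H3K27ac its cover ran from 7.38% at Pax5 to 52.8% at Barhl2. Whether the peaks favoured or avoided it was not tested.

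Gata4 was the regulator with own-promoter acetylation in both genotypes. The peak was at chr14:63214550-63215249 in WT and chr14:63214500-63215199 in Shh-/-, each 700 bp long, in an intron, at 26.2% of the WT and 24.9% of the Shh-/- list by rank, with a log2 ratio of ChIP to input of 3.71 and 3.63. It lay 943 bp in WT and 893 bp in Shh-/- from an internal start of Gata4, at chr14:63213607, and away from the upstream starts at chr14:63245248 and chr14:63245271, and no H3K27me3 or H3K4me2 peak lay over it. Shh-/- limb buds had 2 more intronic peaks, of 350 and 150 bp. A WT peak that reached into the far end of the window lay over an exon and untranslated region of Fdft1, a gene of sterol synthesis. With it, Gata4 had 928 bp in WT and 1200 bp in Shh-/-.

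The other large differences between genotypes rested on small peaks. Lhx1, of kidney and spinal interneurons, had 550 bp in WT and 0 in Shh-/-, and all 3 peaks lay within 278 bp of the start of its neighbour Aatf. Barhl2 had 600 bp in WT and 250 bp in Shh-/- in an intergenic cluster 15584 to 17084 bp from its start. The largest of these peaks, 400 bp in WT at chr5:106474150-106474549, overlapped the 150 bp peak of Shh-/-. Pou4f1 had 250 bp in WT and 0 in Shh-/-, in 2 peaks overlapping Shh-/- H3K27me3, at 79.1% and 90.1% of the list by rank. Six6, of the eye and hypothalamus, had 0 in WT and 200 bp in Shh-/-, at chr12:72945600-72945799, overlapping H3K27me3 and H3K4me2, 5708 bp from its start and nearer that of 4930447C04Rik. Phox2a, of autonomic neurons, differed little between genotypes and had the most limb H3K27ac of the regulators, 1800 bp in WT and 1850 bp in Shh-/-. Most of this was at the start of Inppl1, and a smaller peak of 350 bp in WT and 400 bp in Shh-/- lay over an exon of Phox2a with its untranslated region, 3537 bp from the start.

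The labelled tissues were checked against markers. The own promoters of 7 of 7 limb mesenchyme genes and 4 of 4 housekeeping genes were acetylated in both limb lists. Of 5 neuronal markers 1 (Elavl4) had promoter H3K27ac in both genotypes, and their windows held 2400 bp in WT and 1200 bp in Shh-/-. Of 4 genes of neural crest and glia 1 had it in each genotype, with 1150 and 900 bp in the windows, and of 5 limb ectoderm genes 0 did, with 4200 and 1050 bp. Of 3 muscle precursor genes 0 had it in WT and 2 in Shh-/-, and their windows held 850 and 1650 bp. Endothelium had 1 of 4 in each genotype (3050 and 2800 bp) and blood 1 of 3 in WT and 0 in Shh-/- (200 and 300 bp). Tubb3, Sp8, Met, Kdr, Klf1 and Foxd3 were at 0 bp in both genotypes. Cells of these kinds are part of a limb bud, and their part in the acetylation near the regulators was not tested.

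In NIH3T3 cells, where 5 of 5 fibroblast genes had promoter H3K27ac in both lists, 7 of the 45 windows held H3K27ac with DMSO, beside 70.0% of all genes, and 6 with purmorphamine, beside 69.6%. The own promoter was acetylated in 2 regulators in each list, beside 53.0% and 53.1%, and these were Gata4 and Nkx2-5, both cardiac. H3K27ac was in the DMSO and not the purmorphamine window at 2 (Cdx2 and Pdx1, the same peak of 100 bp), beside 2.01% of all genes, and the reverse at 1 (Lhx3, 150 bp at 922 bp from the start of Qsox2), beside 1.52%. Of the 25 DMSO peaks 18 overlapped a purmorphamine peak (72%, interval 52.4 to 85.7), and 58.9% of the whole list did.

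Nkx2-5 had 2300 bp of H3K27ac with DMSO and 3350 bp with purmorphamine, the largest difference of the regulators. In both lists a peak lay at the gene, of 850 bp with DMSO at 316 bp from the start and of 900 bp with purmorphamine over the start. Most of the rest lay near the edge of the window, over Gm17382 and Gm20468. A purmorphamine peak of 350 bp at chr17:26857700-26858049 was 2751 bp from the nearest DMSO peak. Gata4 went the other way, with 5078 bp in 13 peaks with DMSO and 4178 bp in 8 with purmorphamine. In NIH3T3 cells a peak of 450 bp at chr14:63244900-63245349 covered both upstream starts with DMSO. With purmorphamine the peak of 450 bp at chr14:63244800-63245249 covered the start at chr14:63245248 and ended before that at chr14:63245271. Both peaks lay where the limb lists had H3K27me3 and no H3K27ac. Lhx1 had 1550 and 1700 bp, most of it at Aatf. Of the 25 DMSO and 21 purmorphamine peaks, 8 in each list (32% and 38.1%) overlapped a region that carried H3K27me3 in Shh-/- limb buds. Of the whole lists, 1.34% and 1.46% did. H3K27me3 covered 28.6% of the summed windows themselves, which is a share of bases and not of peaks. In the windows with NIH3T3 peaks its cover ran from 10.6% at Phox2a to 62.2% at Neurod2. Whether the peaks favoured or avoided such regions was not tested.

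Other protein-coding starts lay in the windows of 8 regulators, among them Lhx1, Phox2a, Gata4 and Neurod2, so peaks there may belong to a neighbour. When a peak was counted only where the nearest protein-coding start was that of the regulator, H3K27ac was left in 4 windows with DMSO and 3 with purmorphamine. Counted with only the most upstream start of each gene, own-promoter H3K27ac was left at 0 regulators in WT and 1 in Shh-/-, since the acetylated start of Gata4 is internal.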

How the data were processed

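Peak lists from 24 libraries in 14 groups were used, with 7 conditions of 2 replicates each. Per the labels and methods, the authors aligned reads to mm10 (the processing notes name Bowtie2 2.2.5) and called peaks with CisGenome 2.1.0 against input, both replicates together. H3K27me3 and NIH3T3 had 2 input libraries per condition and the other limb marks 1. The labels and the methods name different antibodies for H3K27me3. Each deposited peak has a rank, a position in steps of 50 bp, and 4 values. The authors' score is the largest statistic of ChIP against input. The deposited log2 value is the largest ratio of ChIP to input. The deposited FDR is a q-value. The deposited −log10 value is that of the smallest Poisson p-value. The lists were limited by score (at least 3) and −log10 p (at least 5), and the highest FDR ran from 0.000805 to 0.255. The study's methods state a minimum sequencing depth per library, but the lists hold no read totals, so the depth of each library and the precision it gives could not be computed. Peaks on other sequences than chromosomes 1 to 19, X and Y were set aside.

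Overlap (at least 1 bp) and covered bases were computed with pandas 2.3.3 and scipy 1.17.1 on GENCODE M21 basic genes of GRCm38. They were tested on simulated data against bedtools 2.31.1, which also gave the same 307 H3K27me3 peaks. All peak ends lay within GRCm38 chromosome lengths. Sequences were from RefSeq GRCm38.p6, and 6 regulators (Gata4, Lhx5, Olig1, Otx1, Sox17, Sox3) were not in its promoter set. The regulators and the comparison lists were chosen with earlier results of these data known. Genes in detail were, by rule, the 6 with most H3K27me3 bases, those with own-promoter H3K27ac, and the 5 with the largest H3K27ac difference between genotypes and between NIH3T3 lists, where a tie at the last place kept both genes. Other regulators named beside these were chosen after their values were seen. No test was made, since the conditions have no replicate lists. Alternatives were other windows, stricter lists, nearest genes, larger overlaps and narrower promoters.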

Additional observations from a re-analysis of the deposited data

How the results depend on the processing

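No paired analysis was possible because both replicates of a condition were entered in 1 peak list. Of 87 values recomputed under 12 settings, 56 moved by no more than 1.5 times and 31 moved further or, for the covered share, outside its counting interval. The counts for H3K27me3 in the window and at the own promoter were 45 under all settings tried. Without a flank, H3K27ac was in 3 windows in WT, 3 in Shh-/-, 2 with DMSO and 2 with purmorphamine, and H3K27me3 covered 41.9% of the bases. With 5 kb on either side they were 5 (WT), 3 (DMSO) and 3 (purmorphamine) and the share 49%. With 50 kb they were 17 (WT), 13 (Shh-/-), 15 (DMSO) and 13 (purmorphamine) and the share 15.4%. In the better-ranked 50% of every list, H3K4me2 in WT was left in 25 windows, H3K27ac in 4 (WT) and 2 (Shh-/-) windows and at 1 own promoter in Shh-/-, and the share was 28.2%. In the 20000 best-ranked peaks, H3K27ac was left in 3 (WT), 2 (Shh-/-) and 4 (DMSO) windows and at 1 own promoter in Shh-/-. Under either of these settings, Shh-/- H3K4me2 fell from 43 to 29 windows. Its overlap with H3K27me3 fell from 42 to 28, which is just within the limit of 1.5 times. With an FDR under 0.05 the share was 28.1%. By nearest start, H3K27ac was left in 4 (DMSO) and 3 (purmorphamine) windows. With at least 50% of an H3K27me3 peak under H3K4me2, overlap of the marks was left in 4 windows. With 500 bp on either side of a start, and with the most upstream start alone (chosen after seeing the data), own-promoter H3K27ac was at 0 regulators in WT and 1 in Shh-/-. Counts of H3K27ac peaks are so low that 1 peak moves them, and the lists hold no read totals from which a detection limit could be computed.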
